A study of Mus musculus with 6 samples.

Results

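The genes followed here were 9 markers of the kidney tubule beyond the loop of Henle's thin limb: Umod, Slc12a1, Kcnj1, Cldn16 and Egf of the thick ascending limb, and Slc12a3, Pvalb, Trpm6 and Calb1 of the distal convoluted and connecting tubule. They were chosen by symbol, as 9 of the 46095 genes in a table of RNA sequencing counts, and all 9 were among the 14611 genes with enough counts to be tested. The libraries came from freshly isolated PTECs (primary tubular epithelial cells) of 6 mice at 10 weeks of age. The label VHL-KO is on 3 libraries (replicates 1, 2 and 4) and the label VHL-KO;SETD2-KO is on the other 3 (replicates 2, 3 and 4). Both labels stand for mice in which KspCre, a Cre recombinase driven by the promoter of Cdh16, deletes floxed VHL alleles in renal tubules. The VHL-KO;SETD2-KO mice carry floxed Setd2 alleles as well, and no library of mice with intact VHL was analysed here. The comparison asks how the transcriptome of VHL-deficient tubular cells differs when Setd2, the enzyme that trimethylates lysine 36 of histone H3, is deleted too.

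The thick ascending limb reabsorbs sodium chloride without water and drives the uptake of calcium and magnesium between its cells. The distal convoluted tubule that follows takes up sodium chloride through a thiazide-sensitive cotransporter and magnesium through a channel, and the connecting tubule takes up calcium through its cells. These segments are a minority of the cortical tubule, which is mostly proximal tubule, so in bulk PTEC RNA their transcripts depend on how many distal cells were isolated as well as on how much of each RNA a cell holds. Fewer cells of a type and less RNA per cell cannot be told apart in these libraries.

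The libraries held 11168552 to 17883466 counts. The targeted gene did not separate the labels: Setd2 counts were 1179, 799 and 132 under the VHL-KO label and 1499, 1019 and 1429 under the VHL-KO;SETD2-KO label, a log2 fold change of 0.52 ± 0.64 (SE, n = 3 per label, edgeR adjusted p = 0.787). CPM of the gene overlapped between labels. The paper reports reduced SETD2 and H3K36me3 in the renal tubules of such mice, from RT-qPCR, Western blots and staining. Counts per gene do not separate the deleted exons from the rest of the gene, and every direction given here rests on the labels. The library labelled VHL-KO replicate 4 stood apart, with Spearman correlations of 0.717 to 0.765 to the other 5 libraries against 0.937 to 0.986 among those, and with 11.3% of its counts on mitochondrially encoded genes against 25.9% to 36.4%. The one labelled VHL-KO;SETD2-KO replicate 3 also differed, in having 11704 counts of Xist against at most 4 elsewhere. The paper names male and female mice of both genotypes among animals killed at later ages, and gives no sex for the mice sequenced. The labels do not give the sex of the mouse of any library. The part of sex in what sets this library apart was not tested. Results for the 9 genes are given with and without both libraries. Proximal tubule markers (10 genes, among them Slc34a1 and Lrp2) summed to 16119 to 28116 CPM (counts scaled to a common library total by the TMM method) in the VHL-KO libraries and to 7088 to 10085 CPM in the VHL-KO;SETD2-KO libraries, and the 9 distal genes summed to 1654 to 5377 CPM and 2161 to 5768 CPM.

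**Figure D1:**
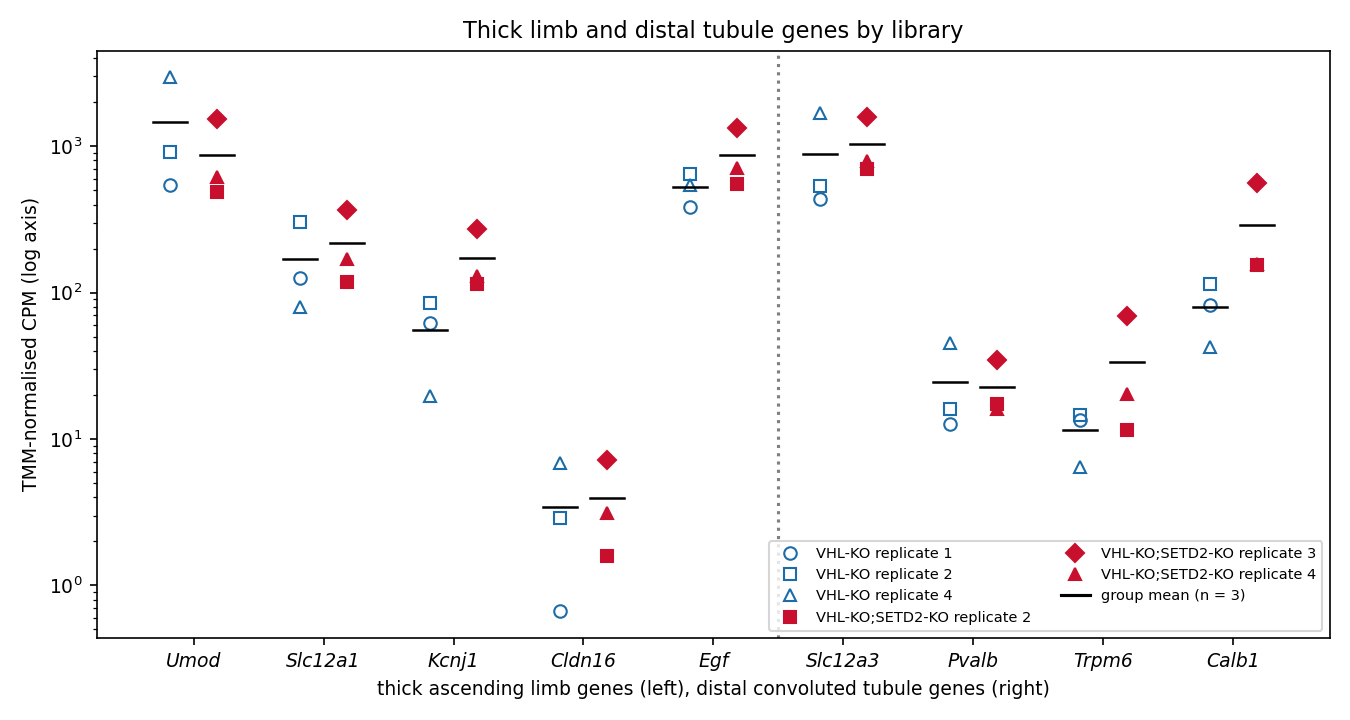
TMM-normalised CPM (log axis) of the 9 genes in each of the 6 libraries, open blue symbols for those labelled VHL-KO and filled red symbols for those labelled VHL-KO;SETD2-KO, with one symbol shape per replicate and black bars for the mean of each label. Kcnj1 and Calb1 are the 2 genes for which every red symbol lies above every blue one, and VHL-KO;SETD2-KO replicate 3 is the highest of its label for all 9 genes.

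Per kilobase of exon, Umod was the most abundant of the 9 genes, with 447 CPM per kb as the mean of the 6 libraries, followed by Slc12a3 at 203 CPM per kb and Egf at 145 CPM per kb. Umod was above Slc12a3 in 6 of 6 libraries and Slc12a3 was above Egf in 5 of 6. Calb1, at 44.0 CPM per kb, was below Egf in every library. Calb1, Slc12a1 (39.5 CPM per kb) and Kcnj1 (34.3 CPM per kb) did not keep an order, since each was above the next in 3 of 6 libraries. Kcnj1 was above Pvalb, at 22.8 CPM per kb, in 5 of 6 libraries. The lowest levels were those of Trpm6, at 3.47 CPM per kb and below Pvalb in every library, and of Cldn16, at 3.16 CPM per kb and below Trpm6 in 4 of 6.

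The genes lie on 9 different chromosomes of the mouse genome (GRCm38). Promoters of 3 of them are shown. Those of Slc12a3 and Trpm6 hold letters that a transcription factor measured in the same libraries can bind. That factor is described with the distal transcription factors. The promoter of Kcnj1 holds no match, and those of Pvalb, which do, are not shown. Each line gives the 250 bases before the RefSeq transcription start (GRCm38.p6), 5′ to 3′ on the strand of the gene, with capitals for GCCNNNGGC, the letters bound by AP-2 factors.
Slc12a3 (chr8:94328958-94329207, plus strand): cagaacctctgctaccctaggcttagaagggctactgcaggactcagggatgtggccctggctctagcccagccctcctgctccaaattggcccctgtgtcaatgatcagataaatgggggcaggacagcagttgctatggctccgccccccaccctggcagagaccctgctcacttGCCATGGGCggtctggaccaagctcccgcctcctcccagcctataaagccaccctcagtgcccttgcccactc
Trpm6 (chr19:18749480-18749729, plus strand): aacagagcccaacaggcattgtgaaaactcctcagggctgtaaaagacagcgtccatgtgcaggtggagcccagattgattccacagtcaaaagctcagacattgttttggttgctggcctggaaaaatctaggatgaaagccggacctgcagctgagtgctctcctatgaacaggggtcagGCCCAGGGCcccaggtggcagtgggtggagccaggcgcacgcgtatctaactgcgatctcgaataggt
Kcnj1 (chr9:32393735-32393984, plus strand): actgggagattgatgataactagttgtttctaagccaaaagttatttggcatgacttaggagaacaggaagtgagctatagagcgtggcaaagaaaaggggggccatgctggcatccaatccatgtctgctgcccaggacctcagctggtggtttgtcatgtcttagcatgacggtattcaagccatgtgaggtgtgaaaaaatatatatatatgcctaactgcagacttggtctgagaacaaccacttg

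GCCNNNGGC, searched on both strands, stood 73 bases before the start of Slc12a3, 68 bases before that of Trpm6 and in both listed promoters of Pvalb. That is 4 of the 10 promoters that RefSeq lists for 8 of the 9 genes, against 13.7% of all 32851 mouse promoters of the same length. AAGGTCA, the letters bound by estrogen-related receptors, was in none of the 10 windows and in 4.08% of all promoters. The window of Kcnj1 held neither, and it lies before a start inside the GENCODE gene rather than at its outer end. A match is a description of the letters and not a binding site.

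Across labels, 2 of the 9 genes, Kcnj1 and Calb1, were higher in the VHL-KO;SETD2-KO libraries at an unadjusted edgeR p under 0.05 and at least 1.5-fold, and 0 were lower. Over all 14611 genes tested, 2.65% were called higher and 4.68% lower by the same rule. After Benjamini-Hochberg adjustment over all genes tested, 0 of the 9 were called by edgeR, where the adjusted calls over all genes were 0% higher and 0.00684% lower. DESeq2 called 3 of the 9 higher by the unadjusted rule (Kcnj1, Trpm6 and Calb1, against 1.77% of all genes) and 0 of the 6 to which it gave an adjusted p (0.0619% of all such genes). Limma-voom called 2 unadjusted (2.90%) and 0 adjusted (0%). Kcnj1 and Calb1 were also the only members with no overlap between labels, both with the VHL-KO;SETD2-KO libraries higher, where 9.62% of all tested genes had no overlap in that direction and 11.0% in the other. The median log2 fold change of the 9 genes was 0.38, with 7 positive and 2 negative, against a median of 0.0093 over all genes tested. By the unadjusted rule edgeR called 2 of the 9 higher without VHL-KO replicate 4, Kcnj1 and Slc12a3, where 8.29% of all genes were. It called 0 without VHL-KO replicate 1 (1.31% of all genes) and 0 without VHL-KO;SETD2-KO replicate 3 (2.37%).

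Among the thick limb genes, Kcnj1 (chr9:32372493-32399197, plus strand) encodes ROMK, the apical channel that returns potassium to the lumen for the cotransporter. It had 62.4, 84.9 and 19.8 CPM in VHL-KO replicates 1, 2 and 4, and 114, 274 and 131 CPM in VHL-KO;SETD2-KO replicates 2, 3 and 4. The lowest VHL-KO;SETD2-KO library was above the highest VHL-KO library. The means were 55.7 ± 33.1 and 173 ± 87.7 CPM (SD, n = 3 each), a 3.10-fold difference with a log2 fold change of 1.63 ± 0.63 (SE, edgeR adjusted p = 0.625). Without VHL-KO;SETD2-KO replicate 3 the log2 fold change was 1.14 and without VHL-KO replicate 1 it was 1.72, and neither passed the unadjusted rule.

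Slc12a1 (chr2:125152505-125230002, plus strand) encodes NKCC2, the furosemide-sensitive sodium-potassium-chloride cotransporter that works with ROMK. Its levels were 125, 305 and 79.2 CPM in the VHL-KO libraries and 119, 370 and 171 CPM in the VHL-KO;SETD2-KO libraries. The labels overlapped, with the lowest level in VHL-KO replicate 4 and the highest in VHL-KO;SETD2-KO replicate 3, and the log2 fold change was 0.38 ± 0.65 (SE, n = 3 per label, edgeR adjusted p = 0.837). The sign was negative without VHL-KO;SETD2-KO replicate 3, at -0.22.

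The ratio of Kcnj1 to Slc12a1 within a library was 0.501, 0.278 and 0.250 in the VHL-KO libraries and 0.954, 0.738 and 0.765 in the VHL-KO;SETD2-KO libraries. The labels did not overlap in this ratio. The pair was chosen after the values were seen, so no test is given. VHL-KO replicate 4, the lowest library for each gene alone, was at 0.250 here beside 0.278 in replicate 2. Ratios of CPM between genes are not corrected for length and are read only from library to library.

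Umod (chr7:119462711-119479282, minus strand) encodes uromodulin, the protein that thick limb cells shed into urine. It had 540, 911 and 2955 CPM in the VHL-KO libraries and 491, 1528 and 617 CPM in the VHL-KO;SETD2-KO libraries. The VHL-KO libraries held both the highest level, in replicate 4, and levels inside the range of the other label. The means were 1469 ± 1301 and 879 ± 566 CPM (SD, n = 3 each), with a log2 fold change of -0.74 ± 0.75 (SE, edgeR adjusted p = 0.749). Without VHL-KO replicate 4 the log2 fold change was 0.27.

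Cldn16 (chr16:26463135-26482765, plus strand) encodes claudin-16, part of the tight junction through which calcium and magnesium pass in the thick limb. Its counts were the lowest of the 9 genes in every library but VHL-KO replicate 4, where Trpm6 had 69, with 11, 31 and 73 counts in the VHL-KO libraries and 30, 127 and 50 in the VHL-KO;SETD2-KO libraries, or 0.667 to 6.83 CPM and 1.59 to 7.15 CPM. The labels overlapped, with the lowest value in VHL-KO replicate 1 and the highest in VHL-KO;SETD2-KO replicate 3, and the log2 fold change was 0.21 ± 0.86 (SE, n = 3 per label, edgeR adjusted p = 0.935). Its sign was negative without VHL-KO;SETD2-KO replicate 3, at -0.52.

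Egf (chr3:129677565-129755316, minus strand) encodes the precursor of epidermal growth factor, which the thick limb and the early distal tubule make. It had 382, 651 and 545 CPM in the VHL-KO libraries and 553, 1330 and 715 CPM in the VHL-KO;SETD2-KO libraries. VHL-KO replicate 2 lay above VHL-KO;SETD2-KO replicate 2, so the labels overlapped. The log2 fold change was 0.72 ± 0.50 (SE, n = 3 per label, edgeR adjusted p = 0.656). Leaving out single libraries gave log2 fold changes of 0.28 to 0.97.

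In the distal convoluted tubule, Slc12a3 (chr8:94329201-94366214, plus strand) encodes NCC, the thiazide-sensitive sodium-chloride cotransporter. It had 435, 535 and 1676 CPM in the VHL-KO libraries and 699, 1590 and 799 CPM in the VHL-KO;SETD2-KO libraries. VHL-KO replicates 1 and 2 were below all VHL-KO;SETD2-KO libraries and VHL-KO replicate 4 was above all of them. The log2 fold change was 0.22 ± 0.65 (SE, n = 3 per label, edgeR adjusted p = 0.909). Without VHL-KO replicate 4 it was 1.08 and passed the unadjusted rule (edgeR adjusted p = 0.222).

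Pvalb (chr15:78191114-78206400, minus strand) encodes parvalbumin, a calcium-binding protein of the early distal convoluted tubule. It had 12.7, 16.0 and 45.1 CPM in the VHL-KO libraries and 17.4, 34.9 and 16.1 CPM in the VHL-KO;SETD2-KO libraries. The pattern across libraries was that of Slc12a3, with VHL-KO replicate 4 highest, and the log2 fold change was -0.11 ± 0.59 (SE, n = 3 per label, edgeR adjusted p = 0.952). Over the 6 libraries log2 CPM of Pvalb and Slc12a3 had a Pearson correlation of 0.96, given as a description because both share library and depth. The ratio of Pvalb to Slc12a3 was 0.0291, 0.0299 and 0.0269 in the VHL-KO libraries and 0.0249, 0.0219 and 0.0201 in the VHL-KO;SETD2-KO libraries. The labels did not overlap in this ratio, which was chosen after the values were seen and has no test.

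Trpm6 (chr19:18749983-18892511, plus strand) encodes the apical magnesium channel of the distal convoluted tubule. It had 13.5, 14.6 and 6.45 CPM in the VHL-KO libraries and 11.6, 69.2 and 20.3 CPM in the VHL-KO;SETD2-KO libraries. VHL-KO;SETD2-KO replicate 2 lay inside the range of the VHL-KO libraries, and VHL-KO;SETD2-KO replicate 3 was far above every other library. The log2 fold change was 1.55 ± 0.70 (SE, n = 3 per label, edgeR adjusted p = 0.625), and 0.47 without VHL-KO;SETD2-KO replicate 3. It missed the unadjusted rule of edgeR and passed that of DESeq2.

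Calb1 (chr4:15881264-15908064, plus strand) encodes calbindin-D28k, the cytosolic protein that buffers and ferries calcium through late distal convoluted and connecting tubule cells. It had 82.7, 114 and 42.5 CPM in the VHL-KO libraries and 154, 565 and 156 CPM in the VHL-KO;SETD2-KO libraries. Every VHL-KO;SETD2-KO library was above every VHL-KO library. The means were 79.7 ± 35.9 and 292 ± 237 CPM (SD, n = 3 each), a 3.66-fold difference with a log2 fold change of 1.87 ± 0.67 (SE, edgeR adjusted p = 0.625). The call was lost when any of 3 libraries was left out: the log2 fold change was 1.90 without VHL-KO replicate 1, 1.56 without VHL-KO replicate 4 and 0.96 without VHL-KO;SETD2-KO replicate 3.

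**Figure D2:**
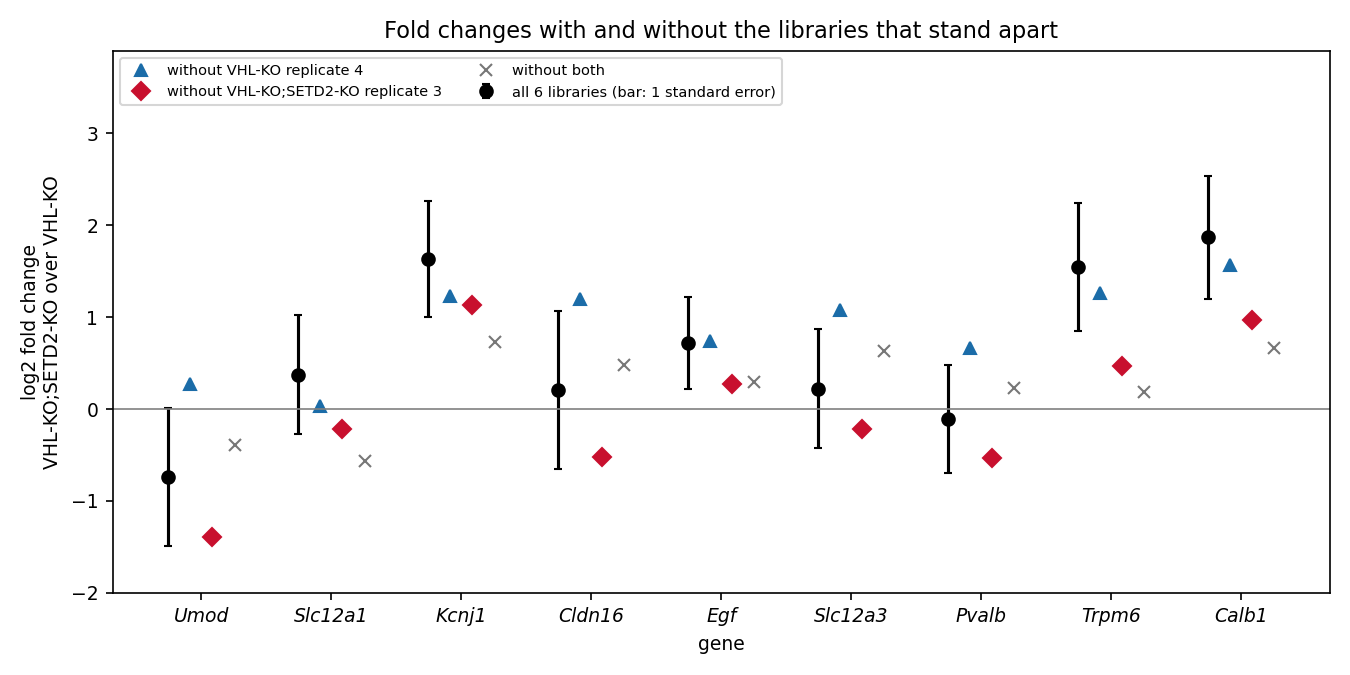
Log2 fold change of each gene, VHL-KO;SETD2-KO over VHL-KO, from edgeR with all 6 libraries (black, bar: 1 standard error), without VHL-KO replicate 4 (blue triangles), without VHL-KO;SETD2-KO replicate 3 (red diamonds) and without both (grey crosses). Kcnj1, Egf, Trpm6 and Calb1 stay above 0 in all 4 fits, while Umod, Slc12a1, Cldn16, Slc12a3 and Pvalb lie on both sides of 0.

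The 2 libraries that stand apart moved the 9 genes in different ways. In VHL-KO;SETD2-KO replicate 3 each of the 9 genes was above both other libraries of its label, by 1.05 (Pvalb) to 2.16 (Trpm6) on the log2 scale relative to their mean, with a median of 1.37. Over all tested genes the median of that difference was 0.0, 41.5% of genes were above both other libraries, and 6.37% reached a difference of at least 1.05. Principal cell markers of the collecting duct summed to 291 CPM in that library against 69.1 and 83.5 CPM in the others of its label, while endothelial markers summed to 1217 CPM against 3996 and 3277 CPM. The part of these cells in the result was not tested.

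In VHL-KO replicate 4 the genes split. Relative to the mean of VHL-KO replicates 1 and 2 on the log2 scale, Cldn16 was higher by 2.17, Umod by 2.07, Slc12a3 by 1.80 and Pvalb by 1.65, while Egf differed by 0.13. Trpm6 differed by -1.11, Calb1 by -1.19, Slc12a1 by -1.30 and Kcnj1 by -1.87. Genes of the same cells went opposite ways: Umod and Slc12a1, both of the thick limb, had a ratio of 37.3 in this library and of 2.98 to 4.34 in the other 5.

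The split ran in part along with base composition. Slc12a3 and Umod, with 53.7% and 51.5% G and C in their longest transcripts, were high in that library, and Kcnj1 and Calb1, with 44.6% and 36.8%, were low. Egf, Pvalb and Cldn16 have nearly the same GC content, 49.6%, 49.3% and 48.9%, and differed by 0.13, 1.65 and 2.17. The Pearson correlation of GC content and the difference was 0.72 over the 9 genes, and that of exonic length was -0.61. Over all tested genes the median difference moved from -2.28 in the lowest of 5 equal bins of GC content to 1.57 in the highest, and from 1.09 in the bin of shortest genes to -1.41 in that of the longest. With a GC term for each library Kcnj1 was called higher by the unadjusted rule (log2 fold change 1.41) and Calb1 was not (1.16), where 5.74% of all genes were called higher. The part of base composition in the levels of single genes was not tested beyond this term.

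**Figure D3:**
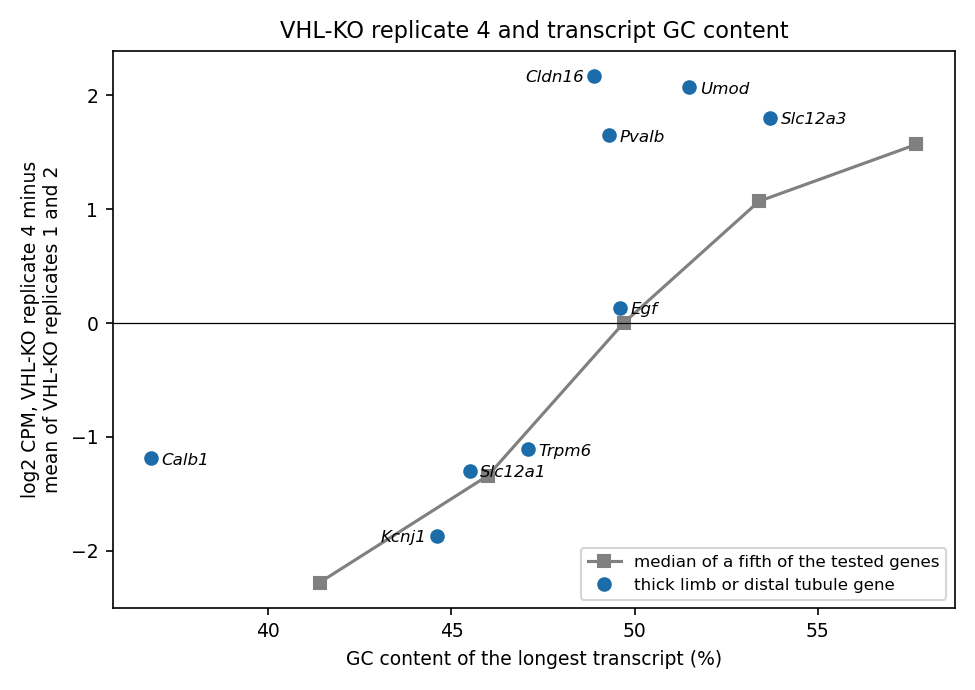
Difference of log2 CPM between VHL-KO replicate 4 and the mean of VHL-KO replicates 1 and 2 (vertical axis) against the GC content of the longest transcript in percent (horizontal axis), for the 9 genes and, in grey, the medians of all tested genes in 5 equal bins of GC content. Egf, Trpm6, Slc12a1 and Kcnj1 lie close to the grey line, while Cldn16, Pvalb, Umod and Slc12a3 (at 1.65 to 2.17) and Calb1 lie above it.

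With both libraries left out, the calls changed in number. The adjusted edgeR p was then 0.0281 for Kcnj1, 0.0322 for Slc12a3 and 0.0348 for Calb1, with all 3 higher in the VHL-KO;SETD2-KO libraries, and 8.90% of all 14732 genes then tested were called higher by the adjusted rule. The log2 fold changes were then smaller for Kcnj1, at 0.74 against 1.63 with all libraries, and for Calb1, at 0.66 against 1.87, and that of Slc12a3 was 0.63. DESeq2 without VHL-KO replicate 4 alone called 1 of the 9, Kcnj1, at an adjusted p of 0.0395, where 3.62% of all genes were called higher. These sets of libraries were chosen after the values were seen, and 2 libraries per label remained in the first.

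Cdh16 encodes Ksp-cadherin of tubular cells, and its promoter drives the Cre of both genotypes, so the levels of the 9 genes were also set against it within each library. Cdh16 had 531, 517 and 2257 CPM in the VHL-KO libraries and 332, 684 and 359 CPM in the VHL-KO;SETD2-KO libraries, with a log2 fold change of -1.27 ± 0.70 (SE, n = 3 per label, edgeR adjusted p = 0.625). Slc12a3 stood at 0.820, 1.04 and 0.743 times Cdh16 in the VHL-KO libraries and at 2.11, 2.32 and 2.23 times in the VHL-KO;SETD2-KO libraries. Both libraries that stand apart lay beside the others of their label in this ratio. In VHL-KO replicate 4 both genes were higher than in replicates 1 and 2, Slc12a3 by 1.80 and Cdh16 by 2.11 on the log2 scale. Their GC contents are 53.7% and 56.1%, and the part of base composition in the ratio was not tested. The log2 difference of the ratio was 1.37 ± 0.15 (SE, n = 3 per label), a 2.59-fold difference, with a two-sided exact permutation p of 0.1, the smallest that 3 against 3 libraries allow. The edgeR log2 fold change of Slc12a3 alone was 0.22 with all libraries, beside -1.27 for Cdh16. Without VHL-KO replicate 4 that of Slc12a3 was 1.08, and the log2 difference of the ratio was 1.27. How much of the difference came from each gene thus depended on that library.

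Of the 9 ratios to Cdh16, 6 had no overlap between labels, each higher in the VHL-KO;SETD2-KO libraries and each at that smallest p of 0.1 in the exact permutation test: Slc12a3, Kcnj1, Egf, Pvalb, Trpm6 and Calb1. Over all tested genes 14.6% of ratios to Cdh16 had no overlap in that direction and 0.698% in the other. Pvalb, whose CPM did not separate the labels, was at 0.0239, 0.0310 and 0.0200 times Cdh16 and at 0.0526, 0.0510 and 0.0447 times. The log2 differences were 2.73 for Kcnj1, 2.67 for Calb1, 2.20 for Trpm6, 1.63 for Egf and 1.01 for Pvalb. Without VHL-KO replicate 4 they were smaller, at 1.41 for Kcnj1, 1.57 for Calb1, 1.13 for Trpm6, 0.97 for Egf and 0.86 for Pvalb. In that library Cdh16 was high while Kcnj1, Calb1 and Trpm6 were low. Umod (0.43), Slc12a1 (1.42) and Cldn16 (1.46) overlapped, with exact permutation p of 0.3, 0.4 and 0.2. With the summed level of the 47 other tested thick limb and distal genes as the reference instead of Cdh16, the differences were 0.37 for Slc12a3, 0.0037 for Pvalb and -0.58 for Umod, and 1.73 for Kcnj1 and 1.67 for Calb1. That sum leaned on Fxyd2, which held 3693 of 7075 CPM in VHL-KO replicate 4 and 979 of 7325 CPM in VHL-KO;SETD2-KO replicate 3.

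**Figure D4:**
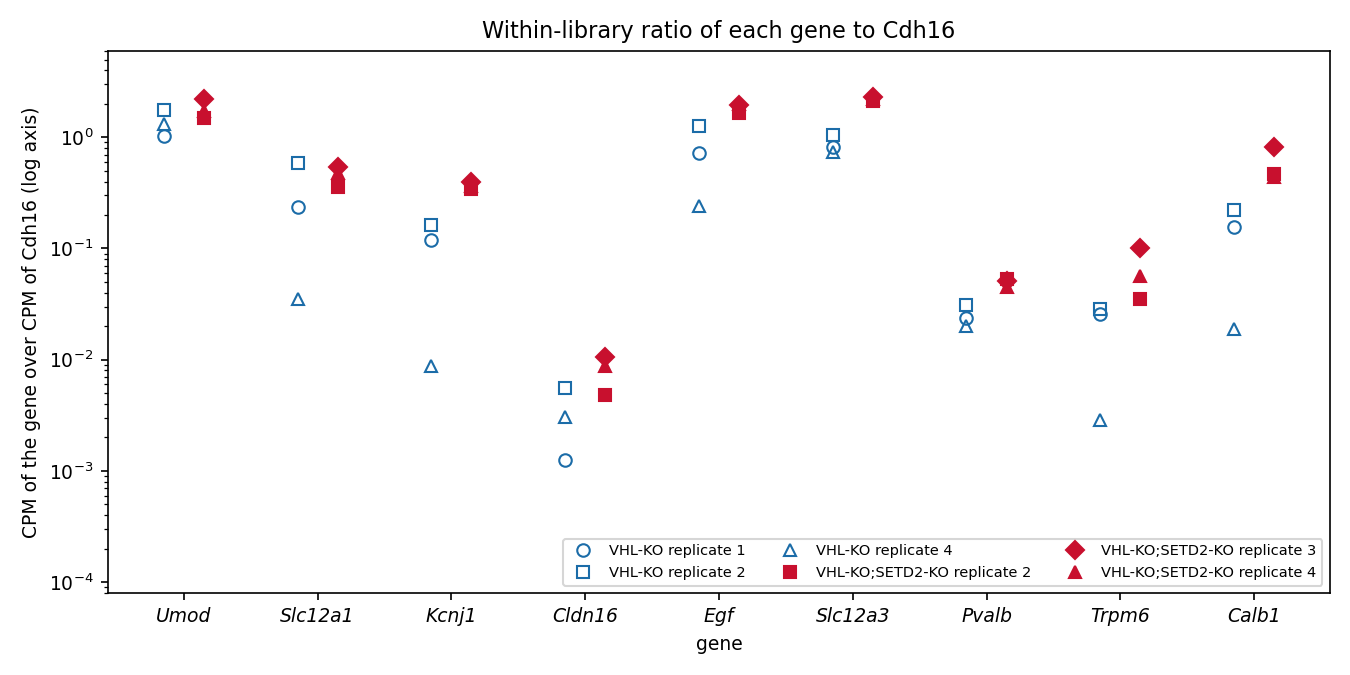
CPM of each gene divided by CPM of Cdh16 in the same library (log axis), open blue symbols for the VHL-KO libraries and filled red symbols for the VHL-KO;SETD2-KO libraries, one symbol shape per replicate. Slc12a3 shows 3 blue symbols between 0.743 and 1.04 and 3 red symbols between 2.11 and 2.32, while Umod overlaps.

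Other genes of the same segments and their regulators were read from lists chosen by function, and 13 of the 47 tested were called at an unadjusted edgeR p, 9 higher and 4 lower, where 2.65% of all tested genes were called higher and 4.68% lower. Without VHL-KO;SETD2-KO replicate 3 the number was 4, of which 3 were higher (2.37% of all genes). Without VHL-KO replicate 4 it was 19, of which 14 were higher (8.29% of all genes). Of 12 other genes of the distal convoluted and connecting tubule, 5 were called higher and 0 lower at an unadjusted edgeR p, beside those shares of 2.65% and 4.68%, with a median log2 fold change of 0.92. Trpv5, the apical channel for calcium entry, had 2.55, 8.23 and 4.40 CPM in the VHL-KO libraries and 13.4, 48.9 and 17.3 CPM in the VHL-KO;SETD2-KO libraries (log2 fold change 2.40 ± 0.67, SE). Slc8a1, the sodium-calcium exchanger of the basolateral membrane, had 39.5, 54.1 and 29.6 CPM and 85.2, 358 and 78.6 CPM (log2 fold change 2.08). Atp2b4, a calcium pump of the plasma membrane, had a log2 fold change of 1.40. The labels did not overlap for these 3 genes, as for 9.62% of all tested genes in that direction, and their adjusted p was 0.625, as it was for the other two called, the basolateral potassium channel gene Kcnj10 (1.41) and Tmem52b (1.35).

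With Calb1, these genes cover the steps by which calcium crosses a connecting tubule cell. S100g, the smaller calbindin, had 35.2, 40.2 and 148 CPM and 79.6, 293 and 79.5 CPM, with VHL-KO replicate 4 inside the range of the other label (log2 fold change 1.02, edgeR adjusted p = 0.673). Atp2b1, a calcium pump found in many tissues, had 90.1, 99.0 and 11.5 CPM and 98.7, 91.6 and 102 CPM (log2 fold change 0.54, edgeR adjusted p = 0.797). These 6 genes were set together after their values were seen, and no test of them as a set is given. VHL-KO;SETD2-KO replicate 3 was the highest library for 5 of them.

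**Figure D5:**
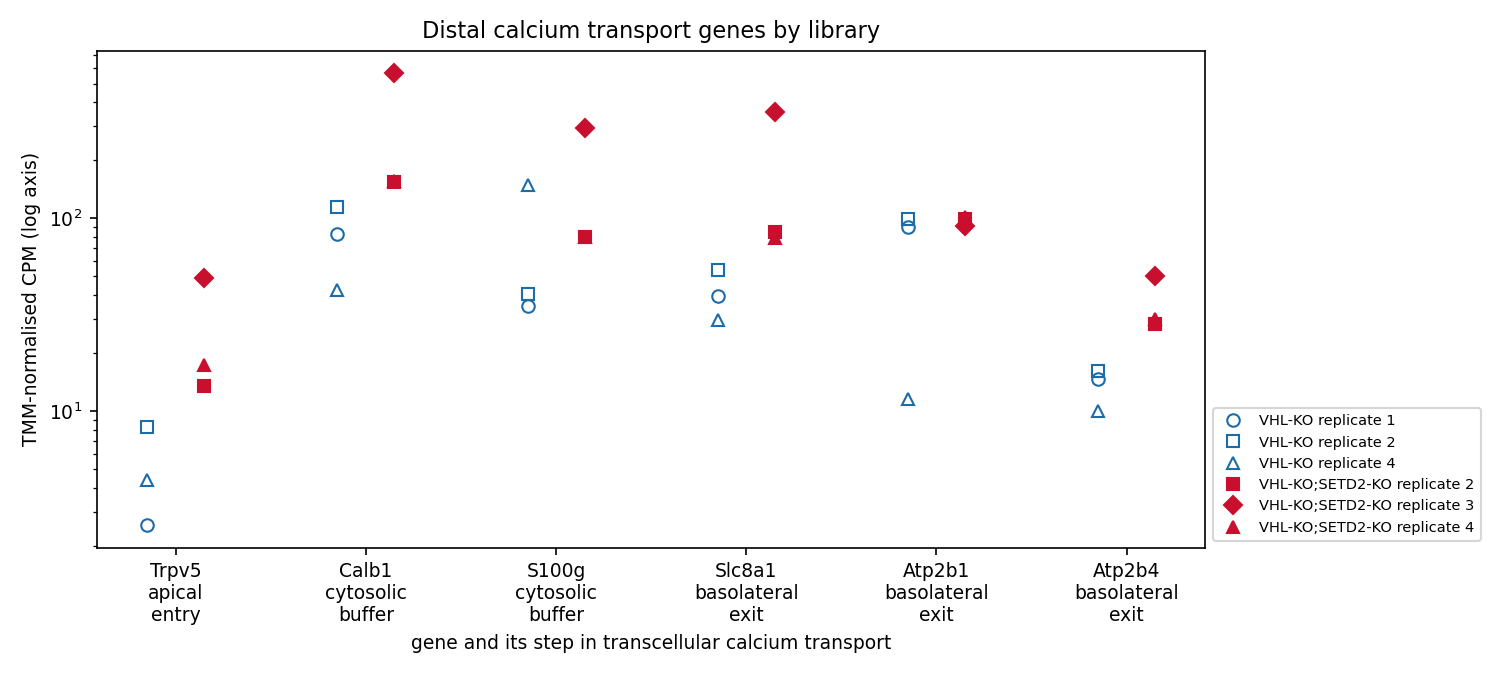
TMM-normalised CPM (log axis) of 6 genes of calcium transport through distal cells, ordered from apical entry through cytosolic buffering to basolateral exit, in the VHL-KO libraries (open blue) and the VHL-KO;SETD2-KO libraries (filled red), one symbol shape per replicate. Trpv5, Calb1, Slc8a1 and Atp2b4 show every red symbol above every blue one, while S100g and Atp2b1 overlap.

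Of 14 other thick limb genes, 13 were tested, 3 were called higher and 1 lower, beside 2.65% and 4.68% of all tested genes. Their median log2 fold change was -0.19, and Cldn14 was at 0 counts in all 6 libraries. Nos1, the neuronal nitric oxide synthase of the macula densa, had 0.242, 0.463 and 0.655 CPM in the VHL-KO libraries and 1.49, 1.30 and 1.63 CPM in the VHL-KO;SETD2-KO libraries (log2 fold change 1.71). These levels rest on 4, 5 and 7 counts against 28, 23 and 26 counts. VHL-KO;SETD2-KO replicate 3 did not stand above its label for this gene. Casr, the calcium-sensing receptor, had 15.2, 24.2 and 13.7 CPM and 26.3, 58.8 and 33.8 CPM (log2 fold change 1.16), and Tmem72 had a log2 fold change of 1.29. Cldn10, a claudin of the thick limb list, was the one called lower, with 136, 100 and 146 CPM and 69.7, 71.0 and 68.5 CPM (log2 fold change -0.87). The edgeR adjusted p was 0.625 for all 4. For Cldn10 too, VHL-KO;SETD2-KO replicate 3 was close to the others of its label. Counts per gene do not separate transcript forms or the cells they come from, and the part of proximal cells in the Cldn10 level was not tested.

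The kinases and ubiquitin ligase parts that control NCC and NKCC2 gave 0 calls in either direction among 10 tested, with a median log2 fold change of 0.55. Over all tested genes 2.65% were called higher and 4.68% lower. Stk39, which encodes SPAK, the kinase that phosphorylates both cotransporters, had 12.4, 17.2 and 8.23 CPM and 20.5, 29.8 and 21.0 CPM, with no overlap (log2 fold change 0.91, edgeR adjusted p = 0.625). Wnk1, a kinase upstream of SPAK, had 341, 351 and 75.3 CPM and 455, 883 and 503 CPM, again with no overlap (log2 fold change 1.26, edgeR adjusted p = 0.625). No overlap in that direction was found for 4 of the 10 genes and for 9.62% of all tested genes. Sgk1, an aldosterone-induced kinase, overlapped between labels (log2 fold change 0.90, edgeR adjusted p = 0.630).

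Of 12 transcription factors of the distal nephron, 1 was called higher and 3 lower, where 2.65% of all tested genes were called higher and 4.68% lower. Tfap2b, an AP-2 factor of the distal convoluted tubule whose letters are capitals in the promoters of Slc12a3 and Trpm6 above, had 9.82, 9.81 and 5.61 CPM in the VHL-KO libraries and 16.2, 37.1 and 17.4 CPM in the VHL-KO;SETD2-KO libraries (log2 fold change 1.48 ± 0.49, SE). Among those called lower, Irx3 had 30.7, 30.0 and 76.2 CPM and 11.4, 9.29 and 15.2 CPM (log2 fold change -1.93), and Pax8, a factor of renal epithelium, had a log2 fold change of -0.93. The edgeR adjusted p was 0.625 for these 3.

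Genes most like Umod and Slc12a3 across the 6 libraries were sought among tested genes with a mean log2 CPM of at least 3. For Slc12a3 these were Rhcg, an ammonia channel of distal and collecting duct cells (Pearson correlation of log2 CPM 0.999), Prom2 (0.997) and Wfdc2 (0.996). Rhcg had 11.2, 17.7 and 97.9 CPM in the VHL-KO libraries and 25.3, 92.1 and 33.0 CPM in the VHL-KO;SETD2-KO libraries. For Umod they were Sh2b1 (0.992), Esrrb, an estrogen-related receptor (0.991), and Tmc4 (0.990). Without VHL-KO replicate 4, in 5 libraries, the 6 correlations were 0.971 to 1.0. These values describe libraries that share depth and composition, and no p is given for them.

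Markers of other cells were read in the same way, where 2.65% of all tested genes were called higher and 4.68% lower. Of 10 proximal tubule genes 4 were called lower and 0 higher at an unadjusted edgeR p, led by Slc22a6 (log2 fold change -1.93), Slc34a1 (-1.66) and Aqp1 (-1.39), and all 3 had an adjusted p of 0.625. Of 5 podocyte genes 3 were called higher, Wt1 and Nphs1 among them, beside that share of 2.65%. Their summed levels overlapped, at 1437 to 2089 CPM against 1971 to 4836 CPM. None of 8 principal cell, 5 endothelial, 6 stromal and 5 leukocyte genes was called by the unadjusted edgeR rule. Summed levels were 55.3 to 619 CPM against 69.1 to 291 CPM for principal cells. For endothelium they were 828 to 1682 CPM against 1217 to 3996 CPM, with all 5 log2 fold changes positive and a median of 1.04. No marker of these lists was at 0 in all libraries, and their part in the levels of the 9 distal genes was not tested.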

How the data were processed

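Messenger RNA of PTECs from 3 mice per genotype label was sequenced as directional libraries. The authors deposited raw counts per gene symbol, without normalization. The submitters' processing notes name HISAT2 2.0.4 and GRCm38, while the counting program, its annotation and its use of strand are not given in the sources used here. Antisense genes overlap Umod, Slc12a1 and Egf, and the one in the table, 6330410L21Rik at Egf, had at most 31 counts.

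The quasi-likelihood test of edgeR 4.0.16 (R 4.3.3), with TMM scaling and the label as the only factor, was run on counts of 14611 genes kept by filterByExpr out of 46095. Calls needed p under 0.05, unadjusted or adjusted by Benjamini-Hochberg over all genes tested, and at least a 1.5-fold difference. A prior count of 2 entered log2 CPM. Ratios to Cdh16 were tested by two-sided exact permutation over 20 assignments. A floor of 3 counts was 0.168 to 0.269 CPM and covers counting error only. P-values measure the spread between these libraries.

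Gene lengths, GC content and positions came from GENCODE M21 transcripts (GRCm38) and covered 94.5% of tested genes, and promoters came from RefSeq (GRCm38.p6), which listed 8 of the 9 genes. Each tool was first tested on simulated counts with known changes.

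The genes and lists were chosen with earlier results of these data known. Named were the 9 genes in every library, Setd2, Vhl and Cdh16, up to 3 genes of smallest p from each list, and 3 genes each most like Umod and Slc12a3. Some listed genes are not reported here by name. Xist, S100g, Atp2b1, Kcnj10, Tmem52b, Cldn10, Cldn14 and Pax8 were named after their values were seen. Vhl, deleted under both labels, checks neither (log2 fold change -0.26).

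Numbers 2 and 4 are replicates of both labels, and no source says that they mark pairs, so the fit had no block. Alternatives were the replicate block, RLE factors, DESeq2 1.42.0, limma-voom (limma 3.58.1), no filter or at least 10 counts, library sizes without mitochondrially encoded genes (35 genes, by RefSeq's list), a fold of 2, other references for ratios, and leaving out each library. Length and GC offsets, DESeq2 without VHL-KO replicate 4, and leaving out both libraries that stand apart were alternatives chosen after seeing the data.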

Additional observations from a re-analysis of the deposited data

How the results depend on the processing

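The tagwise dispersion had a median of 0.247 with 3 libraries per label, and Cldn16 rested on as few as 11 counts in a library. Wide standard errors follow, and a missing call does not show that a gene did not differ. The number of the 9 genes called at an unadjusted p, 2 with all libraries, was 1 with the GC offset and 0 to 3 when each library was left out. At an adjusted p it was 1 with DESeq2 without VHL-KO replicate 4, 3 with both libraries that stand apart left out, and 0 whichever single library was left out. The number of other thick limb and distal genes called, 13, was 8 with the length offset, 20 with DESeq2 without VHL-KO replicate 4, and 4 to 19 on leaving out each library. The median log2 fold change of the 9 genes ranged from -0.218 to 1.081 on leaving out each library. The cause of these shifts was not tested.

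Log2 fold changes that changed sign were those of genes with no call when all 6 libraries were used, among them Slc12a3, which was called without VHL-KO replicate 4. Leaving out each library, Umod ranged from -1.387 to 0.2728, Slc12a1 from -0.2216 to 1.119, Cldn16 from -0.5186 to 1.199, Slc12a3 from -0.218 to 1.081 and Pvalb from -0.5354 to 0.6678. DESeq2 without VHL-KO replicate 4 gave 0.2655 for Umod and 0.6587 for Pvalb. Leaving out both libraries that stand apart gave -0.5629 for Slc12a1 and 0.2314 for Pvalb. The length offset gave -0.2775 for Slc12a3 and 0.3071 for Pvalb, and limma-voom gave 0.03532 for Pvalb. The ratio of Umod to the summed list in place of Cdh16 was -0.5776 on the log2 scale. Kcnj1 and Calb1 stayed higher under every alternative run, Kcnj1 by 1.137 to 2.07 and Calb1 by 0.9646 to 2.225 when each library was left out, and by 0.7353 and 0.6606 with both libraries that stand apart left out, the lowest values of any alternative.

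With the replicate number as a block, 0 of the 9 genes and 1 of the other thick limb and distal genes were called at an unadjusted p, and 0 of the 9 at an adjusted p. The median log2 fold change of the 9 genes under the block was -0.1235, with -0.1235 for Slc12a1, -0.9851 for Cldn16 and -0.3418 for Slc12a3. Deviations from the label means correlated at 0.16 for the libraries numbered 2 and at -0.32 for those numbered 4. Replicates 1 and 3 have no partner. With 3 libraries per label these values cannot show whether equal numbers mark pairs.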

Other observations

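Intercalated cells of the connecting tubule and collecting duct secrete acid or bicarbonate, and of 6 of their genes 3 were called higher than under VHL-KO in libraries labelled VHL-KO;SETD2-KO, with 0 lower, by edgeR's unadjusted rule. Over all tested genes that rule called 2.65% higher and 4.68% lower. Atp6v1g3, a subunit of their proton pump, had 3.52, 8.33 and 2.71 CPM in VHL-KO replicates 1, 2 and 4 and 14.5, 24.8 and 11.8 CPM in VHL-KO;SETD2-KO replicates 2, 3 and 4, with no overlap (log2 fold change 1.81 ± 0.56, SE). Atp6v0d2, another subunit of the pump, had a log2 fold change of 1.79, and Slc26a4, the bicarbonate exchanger pendrin, one of 1.47. The labels did not overlap for these 3 genes, as for 9.62% of all tested genes in that direction. The edgeR adjusted p was 0.625 for all 3, and VHL-KO;SETD2-KO replicate 3 was the highest library for each. The summed level of the 6 genes overlapped between labels, at 30.6, 64.2 and 94.2 CPM against 89.7, 214 and 95.7 CPM.

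Among 6 genes of injured tubule, Havcr1 (KIM-1) was called lower, with 1.52, 1.94 and 1.22 CPM against 0.159, 0.394 and 0.439 CPM (log2 fold change -2.22, edgeR adjusted p = 0.625). Its counts were 25, 21 and 13 against 3, 7 and 7, at or near the floor of 3 counts under the VHL-KO;SETD2-KO label. Spp1, which encodes osteopontin, was called higher, with 199, 195 and 61.7 CPM against 231, 1200 and 243 CPM (log2 fold change 1.88, edgeR adjusted p = 0.625). These calls, 1 in each direction, stand beside 2.65% of all tested genes called higher and 4.68% lower. VHL-KO;SETD2-KO replicate 3, the library in which all 9 distal genes were the highest of their label, held the highest Spp1 level as well.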
